A study of Rattus norvegicus with 8 samples.

Results

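The proteasome subunit genes were taken from the count table as all rows whose symbol begins with Psma, Psmb, Psmc or Psmd followed by a digit, without the immunoproteasome genes Psmb8, Psmb9 and Psmb10. The rule gave 38 of the 17337 genes listed. Of these, 34 encode constitutive proteasome subunits with these symbols and the assembly factors named with them, with 7 Psma, 7 Psmb, 6 Psmc and 14 Psmd genes. All 34 are called subunits below, although Psmd5, Psmd9 and Psmd10 among them are assembly chaperones. The other 4 were Psma8, a testis form of an alpha subunit, Psmb11, the beta subunit of the thymus proteasome, Psma3l, which the RefSeq gene table lists as another name of Psma3, and Psmc3ip, whose symbol fits the rule but whose product is a recombination factor that binds Psmc3 and is no proteasome subunit.

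The mRNA was from the striatum of 8 male Sprague-Dawley rats of wild type genotype, each with its own library. The METH group of 4 rats had self-administered methamphetamine at 0.05 mg/kg per infusion in daily sessions of 2 h for 16 days, and the saline group of 4 rats had the same catheter surgery, food training and sessions with saline alone. All rats were anesthetized with ketamine and xylazine before the brain was taken. Rats of either group were chosen for stable lever pressing, from a larger number of METH than of saline rats. The study describes this choice as one for plasma sampling. The age of the rats and the time from the last session to sampling are not given in the sources used here.

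The proteasome is the protease that degrades most ubiquitin-tagged proteins of the cytosol and nucleus. Its core particle is a barrel in which outer rings of alpha subunits (Psma) gate the entry and inner rings of beta subunits (Psmb) hold the active sites, which belong to Psmb5, Psmb6 and Psmb7. A regulatory particle caps the barrel. In it, a ring of ATPases (Psmc) unfolds the substrate, and the non-ATPase subunits (Psmd) bind ubiquitin, remove it and hold the particle together. In neurons, protein turnover by the proteasome takes part in remodelling synapses, and the transcription factors Nfe2l1 and Nfe2l2 are known to raise the expression of subunit genes.

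The total count per rat ranged from 18135939 to 21211920. METH replicate 3 stood apart on the first principal component of log2 CPM, at 39.5 where the other METH rats were between 0.257 and 5.29, and saline replicate 3 was lowest at -24.6. Markers of cortical neurons were high in saline replicate 1 (summed level 75.3 CPM over 4 genes, against 3.35 to 4.06 CPM in the other saline rats and 3.74 to 13.5 CPM in the METH rats). All 10 markers of striatal projection neurons were detected, with a summed level of 14820 to 15666 CPM in the saline rats and 15701 to 19677 CPM in the METH rats. Ppp1r1b gives a large share of this sum, and over the other 9 markers, a choice made after seeing the data, the groups overlapped (7748 to 8710.1 CPM in saline and 8246 to 9389 CPM in METH rats). Of these 10 markers, 3 had an edgeR p below 0.05 before adjustment, all higher with METH, and 0 were called. Choroid plexus markers were low, with 2 of 5 in the fit, 1 marker higher before adjustment and Otx2 at 0 in every rat. Their sums, mostly Folr1 and Clic6, were 3.95 to 5.55 CPM in saline and 5.62 to 8.91 CPM in METH rats and did not overlap. Each of the 5 markers alone overlapped between the groups. Of 5 endothelial and pericyte markers, 2 were lower before adjustment, with sums of 426 to 607 CPM in saline and 417 to 447 CPM in METH rats. Oligodendrocyte, astrocyte and blood markers had sums that overlapped between the groups, with 0 called and 0 at an edgeR p below 0.05 before adjustment. Microglial markers, with 1 of 7 called, are given below beside Psmb10. The part of these libraries and of tissue composition in the subunit values was not tested, and in bulk tissue fewer cells of a type and less RNA per cell cannot be told apart.

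None of the proteasome subunit genes was called different between METH and saline rats. Levels are given as CPM, the counts divided by the library size after TMM scaling, which corrects for library composition, and the groups were compared by the quasi-likelihood test of edgeR over the 12014 genes that passed a filter on low counts. A gene was called when its mean log2 CPM was above 1 and its false discovery rate (FDR) was below 0.05, which 62 genes met (0.516%; 0.449% higher and 0.0666% lower with METH). Of the 38 members 36 passed the filter, and 0 of the 36 were called, with FDR values from 0.428 to 0.999. The Wald test of DESeq2 and limma-voom called 0 members as well. At an unadjusted p below 0.05 in the edgeR test, 0 members were higher and 1, Psmb11, was lower, where 11.1% of all genes tested passed that level, 6.26% higher and 4.88% lower. Psmb11 was also the single member whose METH and saline rats did not overlap, against 6.39% of the genes tested (3.75% higher and 2.65% lower with METH). It passed the filter through the saline rats alone, so neither its p nor its lack of overlap counts as support for a difference.

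The 34 constitutive subunits lay in a narrow band. Their log2 fold changes (METH over saline) ranged from -0.10 to 0.14, with a median of 0.03 where the median of all genes tested was -0.0055. All 34 subunits lay within 0.15 of 0, a bound just outside their own range, so this count follows from that range. Of the genes tested, 59.0% lay within the same bound. The 95% confidence interval of every one of the 34 contained 0, and the intervals together spanned from 0.810 to 1.25 times the saline level, so that differences larger than these bounds lay outside the intervals. The subunits were measured with 207 to 6095 counts per rat. Their median standard error was 0.075 on the log2 scale against 0.12 for all genes tested, and the median standard deviation between rats of a group was 0.088 against 0.18. The genes tested were not matched to the subunits by level. Their mean levels went down to 0.334 CPM, where those of the subunits were 12.1 to 279 CPM.

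**Figure D1:**
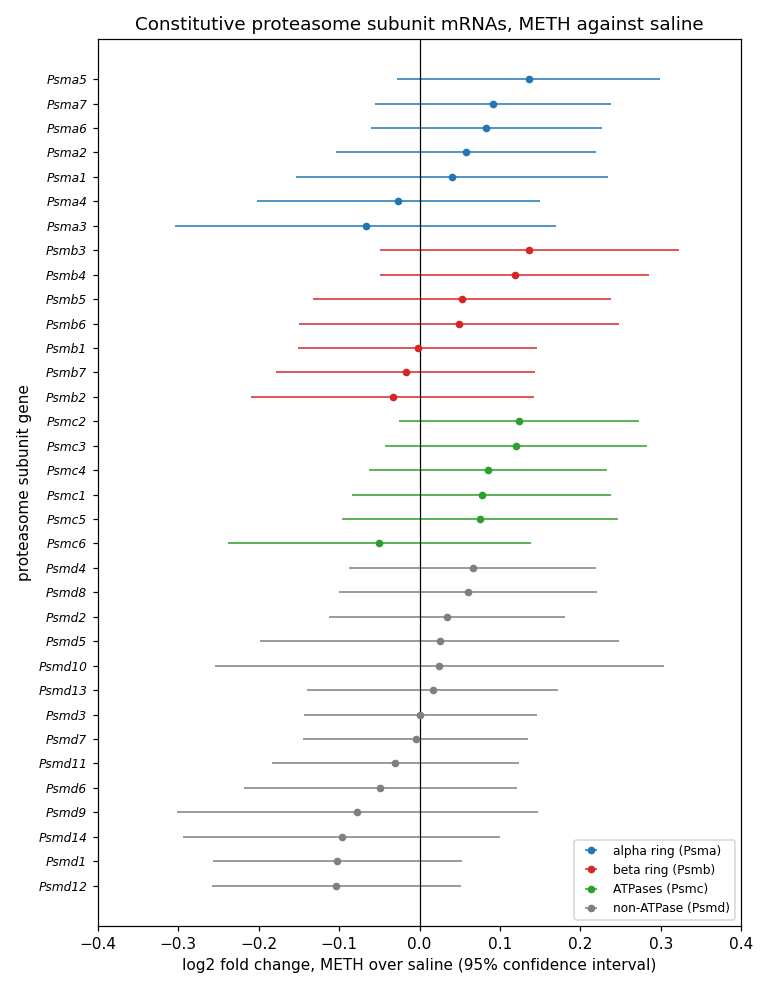
The log2 fold change of each of the 34 constitutive subunit genes (vertical axis, ordered by particle and then by value) in METH over saline rats, with bars for the 95% confidence interval of the edgeR quasi-likelihood fit (4 rats per group). All 34 bars cross the line at 0, and the points lie between -0.10 and 0.14.

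The subunits with a log2 fold change above 0 numbered 21 of 34 (61.8%), against 48.6% of all genes tested. They were 5 of 7 in the alpha ring, 4 of 7 in the beta ring, 5 of 6 ATPases and 7 of 14 non-ATPase genes. The count depends on the scaling. Scaled to total counts alone, 16 of the 34 subunits were above 0 (47.1%) against 40.0% of all genes, whose median moved to -0.04. The median of the subunits minus that of all genes was 0.04 under either scaling. With 1 rat left out at a time, the count ranged from 18, without METH replicate 3, to 24, without saline replicate 4.

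In the alpha ring, whose members shape the gate of the core particle, the log2 fold changes ranged from -0.07 to 0.14 with a median of 0.06. Psma5 had the largest value of the ring. It was at 80.2, 77.5, 77.6 and 86.1 CPM in saline rats 1 to 4 and at 86.2, 86.1, 96.5 and 84.3 CPM in METH rats 1 to 4. METH replicate 3 was the highest of the 8 rats, and the other METH rats lay close to saline replicate 4, the highest saline rat. The log2 fold change was 0.14 (standard error 0.08, 95% interval -0.03 to 0.30), with an FDR of 0.509 in the edgeR test and a two-sided p of 0.0571 in the exact permutation test.

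Psma6, with 121 ± 3.64 CPM (SD, n = 4) in saline and 128 ± 3.68 CPM (SD, n = 4) in METH rats, and Psma7, with 172 ± 8.46 and 183 ± 4.77 CPM, had every METH rat above the saline mean but overlapped with the highest saline rat. Their log2 fold changes were 0.08 and 0.09. Psma1, Psma2 and Psma4 had log2 fold changes of 0.04, 0.06 and -0.03. Psma1 was at 78.4, 76.4, 74.2 and 74.7 CPM in the saline rats and at 85.5, 82.3, 64.7 and 79.8 CPM in the METH rats, where METH replicate 3 was the lowest of all rats and METH replicates 1, 2 and 4 were above every saline rat.

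Psma3 was read least in the ring, at 24.6, 23.2, 18.6 and 23.0 CPM in the saline rats and 21.6, 21.4, 19.7 and 22.6 CPM in the METH rats. These are reads per gene and not per length, so they give no order of transcript abundance between subunits. Psma3l was listed at 0 in every rat. Reads from the locus that fit either annotation can be lost in counting, so the level of Psma3 is uncertain. For Psma3 the value was -0.07 on the log2 scale (standard error 0.11, edgeR FDR 0.844), and it was -0.02 without saline replicate 1 and -0.15 without saline replicate 3.

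In the beta ring the active site subunits showed no difference beyond the spread between rats. Psmb5, which cuts after hydrophobic residues, was at 179, 170.3, 168 and 159 CPM in the saline rats and 165, 167, 206 and 163 CPM in the METH rats. METH replicate 3 was the highest rat by a wide margin, and the other METH rats lay within the saline range. METH over saline gave a log2 fold change of 0.05 (standard error 0.09, edgeR FDR 0.844), which was -0.03 without METH replicate 3. Psmb6, which cuts after acidic residues, was at 146, 145, 128 and 129.5 CPM in the saline rats and 126, 142, 166 and 135 CPM in the METH rats. METH replicate 3 was the highest of all rats and METH replicate 1 the lowest. Its log2 fold change of 0.05 was -0.03 without METH replicate 3.

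Psmb7, which cuts after basic residues, was at 234, 214, 189.9 and 211 CPM in the saline rats and 211, 209, 210.3 and 207 CPM in the METH rats. The METH rats lay close together inside the wider saline range, and METH replicate 3 did not stand out. For this subunit the log2 fold change was -0.02 (standard error 0.07, edgeR FDR 0.956), and it was 0.03 without saline replicate 1.

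The structural subunit Psmb3 had the largest log2 fold change of all members, 0.14 (standard error 0.09, 95% interval -0.05 to 0.32, edgeR FDR 0.559). It was at 85.2, 74.7, 80.4 and 82.8 CPM in the saline rats and 78.9, 87.8, 101 and 87.5 CPM in the METH rats. METH replicate 1 was below 3 of the saline rats, and the other METH rats were above all of them. Psmb4 was at 193 ± 12.4 CPM (SD, n = 4) in saline and 209 ± 14.8 CPM (SD, n = 4) in METH rats, with a log2 fold change of 0.12. Psmb1 and Psmb2 had log2 fold changes of -0.0024 and -0.03. When single rats were left out the value of Psmb3 ranged from 0.07, without METH replicate 3, to 0.19, without METH replicate 1, where its unadjusted p in the edgeR test was below 0.05.

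Among the ATPases, which unfold substrates and feed them into the core, 5 of 6 had values above 0 and 0 were called. Psmc2 was at 173, 155, 158 and 163 CPM in the saline rats and 182, 168, 181 and 175 CPM in the METH rats. Every METH rat except replicate 2 was above every saline rat. The log2 fold change was 0.12 (standard error 0.07, 95% interval -0.03 to 0.27, edgeR FDR 0.509; exact permutation test, two-sided p = 0.0571). Psmc3, another of the ring, was at 216, 232, 207 and 225 CPM in the saline rats and 236, 223, 265 and 232 CPM in the METH rats, with a log2 fold change of 0.12. METH replicate 3 was again the highest rat, and without it the value was 0.07.

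Psmc1 was at 216, 213, 186 and 201 CPM in the saline rats and 228, 200.3, 217 and 216 CPM in the METH rats, and Psmc5 at 214, 210.1, 171 and 197 CPM and 210.4, 207, 210.3 and 207 CPM. In these ATPases saline replicate 3 was the lowest rat. For Psmc1, METH replicate 1 was the highest rat and METH replicate 2 was below 3 of the saline rats, and for Psmc5 all METH rats lay inside the saline range. Their log2 fold changes were 0.08 and 0.08, and without saline replicate 3 they were 0.04 and 0.0098. Psmc1 was at 0.05 without METH replicate 1, and Psmc5 at 0.12 without saline replicate 1. Psmc4 had 0.09, with METH replicate 1 below the other METH rats, and Psmc6 had -0.05.

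The non-ATPase genes were centred on 0, with 7 above and 7 below and a median log2 fold change of -0.0021. Psmd2, a scaffold subunit that docks ubiquitin receptors, was the most read member, at 261, 265, 294 and 281 CPM in the saline rats and 285, 288, 279 and 275 CPM in the METH rats. The METH rats all lay inside the saline range. Its log2 fold change was 0.03 (standard error 0.07, edgeR FDR 0.878), and it was 0.01 without saline replicate 1, 0.02 without saline replicate 2 and -0.0013 with total-count scaling.

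The lowest values among the constitutive subunits were those of Psmd12 and Psmd1. Psmd12, a subunit of the lid that carries the deubiquitinase, was at 97.9, 91.5, 91.5 and 88.5 CPM in the saline rats and 89.4, 85.7, 80.7 and 88.0 CPM in the METH rats. METH replicate 1 was above the lowest saline rat, and the other METH rats were below all saline rats. On the log2 scale the difference was -0.10 (standard error 0.07, 95% interval -0.26 to 0.05, edgeR FDR 0.596; exact permutation test, two-sided p = 0.0571). Psmd1, the other large scaffold subunit, was at 179, 178, 178 and 194 CPM in the saline rats and 177, 179, 157 and 166 CPM in the METH rats, with a log2 fold change of -0.10 (standard error 0.07, edgeR FDR 0.606) that was -0.07 without METH replicate 3. Psmd14, the deubiquitinase of the lid, was at 56.6 ± 5.04 CPM (SD, n = 4) in saline and 52.9 ± 4.33 CPM (SD, n = 4) in METH rats, a log2 fold change of -0.10.

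Psmd3, Psmd7 and Psmd13, further subunits of the lid, had log2 fold changes of 0.00075, -0.005 and 0.02. Psmd6 and Psmd11, also of the lid, had -0.05 and -0.03, and Psmd8 had 0.06. The ubiquitin receptor Psmd4 was at 112 ± 5.82 CPM (SD, n = 4) in saline and 117 ± 4.78 CPM (SD, n = 4) in METH rats, with a log2 fold change of 0.07.

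The assembly chaperones of the ATPase ring that carry Psmd names were among the least read members. Psmd10 was at 11.9, 11.4, 12.2 and 12.3 CPM in the saline rats and 10.6, 14.1, 11.7 and 12.2 CPM in the METH rats, so that the METH rats spread around a tight saline group. Psmd5 was at 26.5, 26.3, 29.4 and 30.6 CPM in the saline rats and 25.3, 31.1, 27.1 and 31.3 CPM in the METH rats. Their log2 fold changes were 0.02 (standard error 0.13) and 0.03 (standard error 0.10), and each changed sign under total-count scaling (-0.01 in both). Psmd10 was at -0.06 without METH replicate 2, and Psmd5 was between -0.02 and -0.0034 without saline replicate 1 or 2 or METH replicate 2 or 4. Psmd9, the third of these chaperones, had -0.08.

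Summed over each particle part, the reads on the 34 subunits came to 4166 ± 128 CPM (SD, n = 4) in saline and 4273 ± 74.6 CPM (SD, n = 4) in METH rats, a difference of 2.56% of the saline mean. The ATPase sum had the largest difference, 952 ± 50.5 CPM (SD, n = 4) against 1011 ± 31.2 CPM (SD, n = 4), or 6.15%. The alpha ring differed by 4.57% and the beta ring by 3.03%, and the non-ATPase sum by -0.849%. In every one of these sums the groups overlapped. For the total and the alpha ring this rested on saline replicate 1 alone, at 4317 and 688 CPM. The other saline rats reached at most 4186 and 657.1 CPM, below the lowest METH rats at 4212 and 673.6 CPM. In the remaining sums other saline rats also lay in the METH range. Saline replicate 1 is the rat with high cortical markers, and the part of this in the sums was not tested. Sums are weighted toward the genes with the most reads, and no test was made on them.

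**Figure D2:**
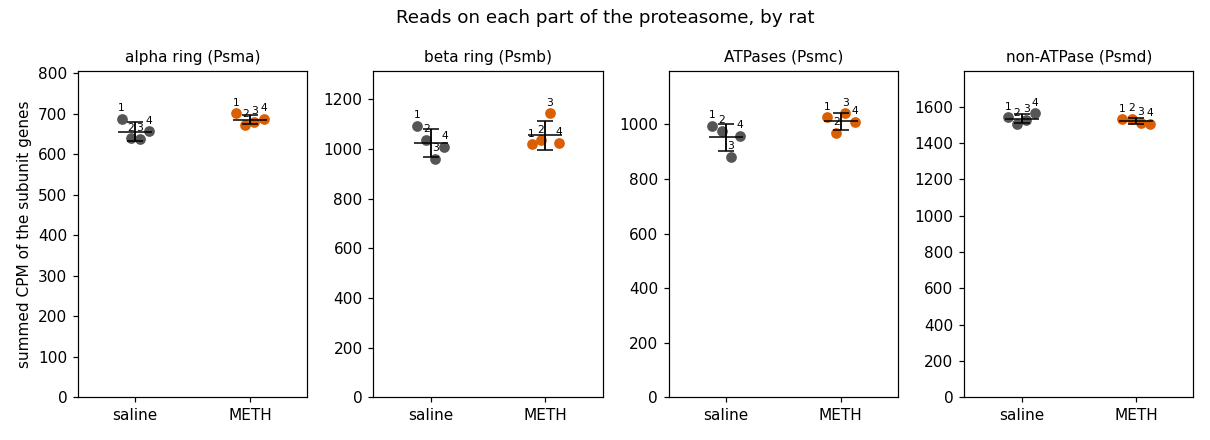
Summed CPM (vertical axes, from 0) of the constitutive genes of the alpha ring, the beta ring, the ATPases and the non-ATPase subunits in each rat, with the mean and SD of each group (n = 4). Small numbers give the rat. METH replicate 3 is the top rat of the beta ring at 1143 CPM and saline replicate 3 the bottom rat of the ATPases at 880.1 CPM.

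The summed level spread from 4005 to 4317 CPM among saline rats and from 4212 to 4376 CPM among METH rats. The median deviation of the 34 subunits from the mean of all rats was lowest in saline replicate 3 (-0.08 on the log2 scale, with 26 of 34 subunits below the mean) and highest in METH replicate 3 (0.04, with 20 of 34 above). The same median over all genes tested lay between 0.0010 and 0.0064 in the 8 rats. Saline replicate 3 was the lowest rat for 13 of 34 subunits (38.2%, against 16.1% of all genes), and saline replicate 1 the highest rat for 10 (29.4%, against 10.3%).

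METH replicate 3 lay on either side of the other METH rats. It was the highest of all rats for 10 subunits (29.4%) and the lowest for 8 (23.5%), where it was the highest for 23.1% and the lowest for 22.3% of all genes tested, so the subunits were near the background. Against the mean of the other METH rats, Psmb5 was higher by 0.32, Psmb6 by 0.31, Psmb3 by 0.26, Psmc3 by 0.20 and Psmb4 by 0.19 on the log2 scale. Psma1 was at -0.35, Psmc6 at -0.19, Psmd14 and Psmd6 at -0.18 and Psma3 at -0.15 on the same scale. The ratio of reads on the constitutive Psma and Psmb genes to reads on the Psmc and Psmd genes, chaperones included, was 0.714 in METH replicate 3. It was 0.673 to 0.683 in the other METH rats, 0.702 in saline replicate 1 and 0.661 to 0.676 in the other saline rats.

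**Figure D3:**
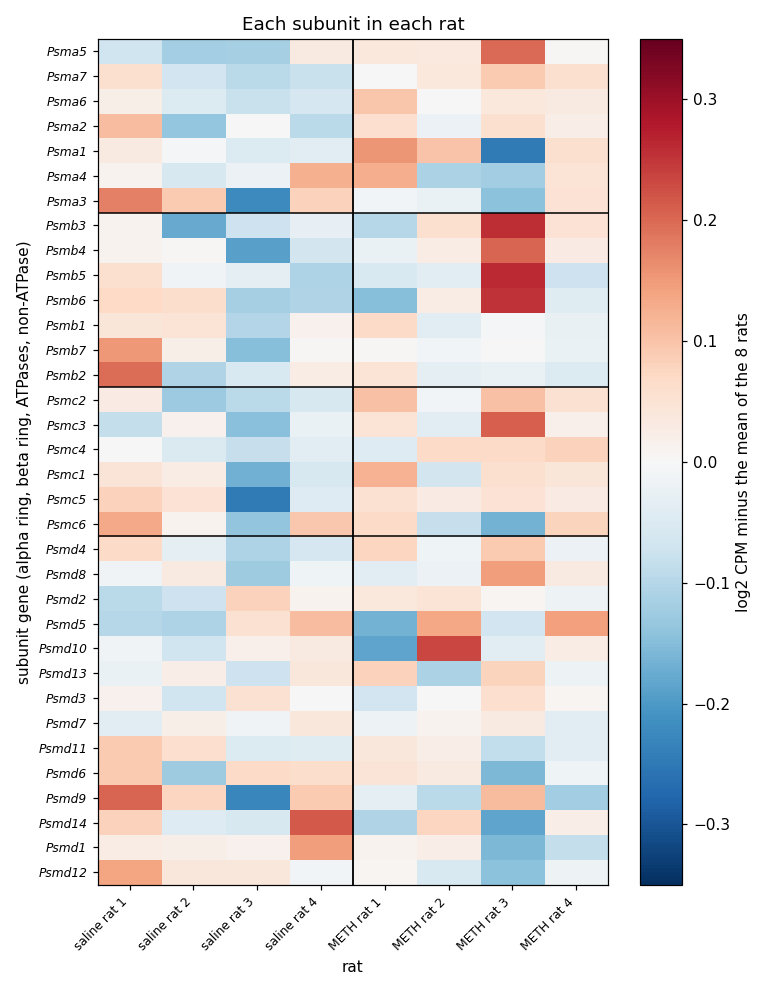
Each constitutive subunit gene (rows, grouped by alpha ring, beta ring, ATPases and non-ATPase genes) in each of the 8 rats (columns, saline left of the line and METH right), coloured by log2 CPM minus the mean of the 8 rats. The column of METH replicate 3 holds red cells for Psmb3, Psmb4, Psmb5 and Psmb6 and blue cells for Psma1 and Psmc6, and that of saline replicate 3 is below the mean for 26 of 34 genes.

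The forms restricted to other tissues were at or near the detection limit. Psma8 had 1 count in saline replicate 1 and 0 in every other rat, where 3 counts, the upper limit that a count of 0 allows, correspond to 0.142 to 0.169 CPM. Psmb11 had 13, 22, 14 and 12 counts in the saline rats and 5, 8, 4 and 10 counts in the METH rats, or 0.714, 1.10, 0.676 and 0.567 CPM and 0.245, 0.381, 0.226 and 0.527 CPM. The highest METH rat was below the lowest saline rat. The log2 fold change was -1.13 (standard error 0.50, 95% interval -2.20 to -0.06, edgeR FDR 0.428), and the exact permutation test gave a two-sided p of 0.0286, the smallest that 4 rats against 4 allow. These values are no support for a difference, because of how Psmb11 passed the filter on low counts, given next.

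Psmb11 passed the filter on low counts through the saline rats alone, since the 4 saline rats and 1 METH rat reached the required 0.498 CPM in 4 rats, and its mean level was below the threshold for a call. At this level, entry in this way picks out genes that are high in 1 group, although it does not fix the size of the difference. Its unadjusted p ranged from 0.0266 to 0.126 over the edgeR fits and was 0.0541 with DESeq2 and 0.0418 with limma-voom. In edgeR it was above 0.05 with no filter on low counts, with the replicate block, and when saline replicate 1, 2 or 3 or METH replicate 1, 2 or 3 was left out. Psmc3ip, the recombination factor, was at 11.9, 8.80, 8.84 and 11.9 CPM in the saline rats and 10.4, 8.28, 11.4 and 9.59 CPM in the METH rats, with a log2 fold change of -0.06 (standard error 0.16) that was 0.0085 without saline replicate 1, 0.0095 without saline replicate 4 and 0.01 without METH replicate 2.

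Interferon signals replace the active site subunits by Psmb8, Psmb9 and Psmb10 and so form the immunoproteasome. Psmb8 and Psmb9 were read little, at 5.49, 7.75, 4.25 and 5.43 CPM and 4.23, 5.80, 4.06 and 4.25 CPM in the saline rats and at 4.11, 4.38, 6.44 and 6.43 CPM and 4.60, 5.14, 6.50 and 3.95 CPM in the METH rats, with groups that overlapped. Their log2 fold changes were -0.10 (standard error 0.24) and 0.14 (standard error 0.22). Psmb8 was at 0.08 without saline replicate 2 and at 0.0022 without METH replicate 1, and Psmb9 at -0.0046 without METH replicate 3. Psmb10, which takes the place of Psmb7, was at 39.7, 37.6, 32.5 and 39.5 CPM in the saline rats and 40.9, 41.0, 50.8 and 46.9 CPM in the METH rats. The lowest METH rat was above the highest saline rat.

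The log2 fold change of Psmb10 was 0.27 (standard error 0.10, 95% interval 0.05 to 0.48). It was not called over all genes (edgeR FDR 0.362; exact permutation test, two-sided p = 0.0286). Left out singly, the rats gave values from 0.20 to 0.31. The microglial markers, from a cell type known for immunoproteasome subunits, summed to 308 to 360.2 CPM in the saline rats and 272 to 329.6 CPM in the METH rats, with 2 of 7 lower at an unadjusted p below 0.05, 0 higher and 1 of 7 called. Their part in the value of Psmb10 was not tested.

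The activators that open the core particle in place of the regulatory particle were 4 genes. Psme4, the nuclear activator, was at 57.5, 42.8, 60.7 and 51.7 CPM in the saline rats and 63.7, 75.1, 54.6 and 70.4 CPM in the METH rats. The groups overlapped, since METH replicate 3 was below 2 saline rats, and the log2 fold change was 0.31 (standard error 0.12, edgeR FDR 0.373; exact permutation test, two-sided p = 0.114). Psme3, also a nuclear activator, was at 126, 119.9, 122 and 129 CPM in the saline rats and 143, 135, 139 and 134 CPM in the METH rats, without overlap. METH over saline gave 0.15 on the log2 scale (standard error 0.07, edgeR FDR 0.431; exact permutation test, two-sided p = 0.0286). The interferon-induced activators Psme1 and Psme2 had 0.09 and -0.06.

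**Figure D4:**
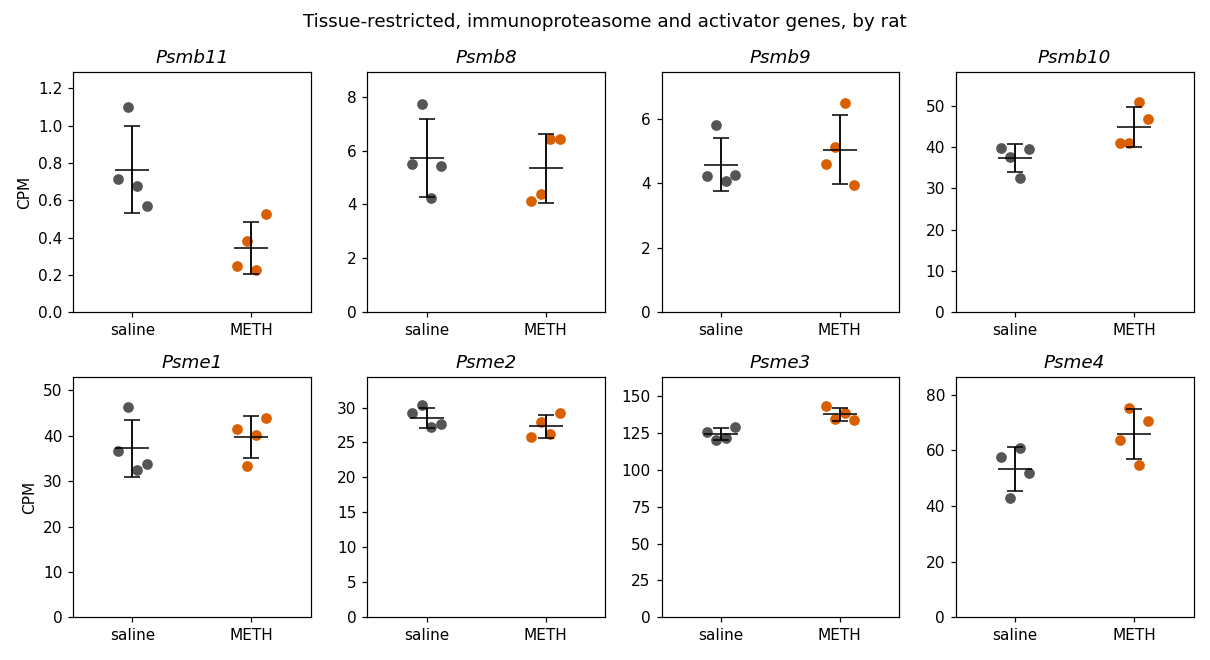
CPM (vertical axes, from 0) of Psmb11, the immunoproteasome genes Psmb8, Psmb9 and Psmb10 and the activators Psme1 to Psme4 in each rat, with the mean and SD of each group (n = 4). The METH rats lie below the saline rats for Psmb11 and above them for Psmb10 and Psme3, and overlap them in the other panels. Of all genes tested, 6.39% did not overlap. Psmb11 passed the filter on low counts through the saline rats alone, so its lack of overlap is no support for a difference. None of the 8 genes was called.

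Of the 43 other genes of the ubiquitin and proteasome pathway on the list, 39 were in the fit. The other 4, Nfe2l1 among them, were not found in the count table under the symbols searched and were not analysed here. None of the 39 was called. At an unadjusted p below 0.05 in the edgeR test, 3 were higher (Psmb10, Psme3 and Psme4) and 0 were lower, against 6.26% and 4.88% of all genes tested. The groups did not overlap for 2 of the 39, Psmb10 and Psme3, against 6.39% of all genes tested, so the list did not exceed that share. The median log2 fold change was 0.02, with 24 of 39 above 0. Nfe2l2, the transcription factor of the antioxidant response, was at 26.1, 28.9, 22.3 and 27.4 CPM in the saline rats and 34.3, 25.6, 26.5 and 27.2 CPM in the METH rats, with METH replicate 1 the highest rat and the rest of that group inside the saline range. METH over saline gave 0.12 on the log2 scale (standard error 0.12, edgeR FDR 0.734), and the value was 0.01 without METH replicate 1 and 0.05 without saline replicate 3.

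Among the factors that work on the regulatory particle, the 8 associated genes had log2 fold changes from -0.14 to 0.16. The 6 genes of ubiquitin and its activating enzymes ranged from -0.11 to 0.12, the 6 genes of the shuttle list other than Nedd8, which bring tagged proteins to the proteasome, from -0.10 to 0.09, and the 3 segregase genes, which extract tagged proteins from complexes, from -0.13 to 0.03. The 4 assembly chaperones in the fit included Pomp, which had 10 to 44 counts per rat and a standard error of 0.48, and a value of -0.64. Saline replicate 2 was at 2.20 CPM where the other saline rats were between 0.549 and 1.04 CPM, and without it the value of Pomp was -0.08. Nedd8, a modifier related to ubiquitin that stands on the shuttle list, had 0.10.

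The promoters of the subunits, which the rule did not use, were searched for known motifs. RefSeq promoters of GRCr8, from 250 bases before the start to 50 after it, were matched by symbol for 30 of the 34 subunits. The letters TGACNNNGC, the core of the antioxidant response element that Nfe2l1 and Nfe2l2 bind, were found on either strand in 7 of the 30 (23.3%), against 12.1% of all 33469 promoters in the table and 14.7% of those of genes in the fit. The letters CCAAT, bound by NF-Y, were found in 16 of the 30 (53.3%), against 37.5% and 36.9%. The cAMP response element TGACGTCA, which shares its first letters with the antioxidant motif, was found in Psmb2 alone (3.33%, against 1.83% and 3.18%). The palindrome bound by Nrf1 was found in Psma2 alone (3.33%, against 0.852% and 1.86%). A match describes letters and not binding.

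The sites that lie before the start are shown for the active site subunits Psmb5 and Psmb6 and for Psmb2, Psmd1 and Psmd9, to let the letters around the match be compared. The match of Psma3 also lies before the start but is not shown, because its window runs past the start. In Psmb2 the last base of a CCAAT is the first base of the match. Each line runs 5′ to 3′ on the strand of the gene, with the match to TGACNNNGC or its reverse complement in capitals and the region in GRCr8 before it.
Psmb5, chr15:32047417-32047453, minus strand: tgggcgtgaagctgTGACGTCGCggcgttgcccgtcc
Psmb6, chr10:55737850-55737886, plus strand: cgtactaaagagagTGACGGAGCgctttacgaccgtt
Psmb2, chr5:144254976-144255012, plus strand: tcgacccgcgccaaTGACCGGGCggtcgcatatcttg
Psmd1, chr9:94157792-94157828, plus strand: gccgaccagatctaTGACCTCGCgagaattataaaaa
Psmd9, chr12:39018366-39018402, minus strand: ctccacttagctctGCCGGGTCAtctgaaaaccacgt
Psmd9, chr12:39018319-39018355, minus strand: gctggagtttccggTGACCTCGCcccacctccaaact

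The 7 genes with TGACNNNGC were Psma3, Psmb2, Psmb5, Psmb6, Psmd1, Psmd3 and Psmd9, and their median log2 fold change was -0.03, with values from -0.10 (Psmd1) to 0.05 (Psmb5). The 16 genes with CCAAT had a median of 0.02.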

How the data were processed

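Striatal mRNA was captured by poly(A) selection and sequenced as paired-end reads from 8 rats. Cutadapt 1.18 was used for trimming and STAR 2.7.0e for alignment against rn6, and the authors deposited raw read counts per gene symbol from featureCounts (Subread 1.6.4), with 1 column per rat. The annotation, strand setting and treatment of multi-mapping reads are not given in the sources used here. Columns were matched to rats by the group and number in their names.

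All values were computed from these counts in R 4.3.3 with edgeR 4.0.16 (filterByExpr with a minimum count of 10, TMM, glmQLFit and glmQLFTest, Benjamini-Hochberg adjustment over all genes in the fit). The standard error is the absolute log2 fold change divided by the square root of F, and the 95% interval uses the t quantile of the fit. Log2 CPM used a prior count of 2. Single genes were also compared by a two-sided exact permutation test over the 70 ways to label 4 of 8 rats. No 2 libraries of a group were alike within counting noise (chi-square over its degrees of freedom from 10.4 to 28.6). Alternatives were RLE and total-count scaling, no filter, DESeq2 1.42.0, limma-voom (limma 3.58.1), each rat left out and the rat number as a block. Intervals for counts of 0 cover counting error only.

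Genes named are members with an unadjusted p below 0.05 or without overlap, the 3 highest and 3 lowest log2 fold changes, the 5 most and 5 least read members, the active site subunits, tissue-restricted members, those that failed the filter, and, of the pathway list, Psmb8 to Psmb10, Nfe2l2 and genes with an unadjusted p below 0.05. Further subunits, given to complete each ring, and Pomp, Nedd8, Psme1, Psme2, Adrm1 and Shfm1 were named after their values were seen. The members and gene lists were chosen with earlier results of these data known. Transcript lengths were not available for rn6, so levels were not compared between genes, and protein identity was not analysed here.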

Additional observations from a re-analysis of the deposited data

Results flagged for a closer look

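In each group of 4 rats, the distance of the outermost rat from the next, divided by the range of the group, was compared with Dixon's 95% critical value for the 36 members, the other named genes and the sums over particle parts. Of 94 groups 7 were past it, where chance gives about 1 in 20. METH replicate 3 was set apart for Psma5 (0.834), for Psmb5 (0.898) and for the sum of the beta ring (0.870), which contains Psmb5. METH replicate 1 was set apart for Psmc4 (0.887), at 93.5 CPM where the other METH rats were between 101 and 102 CPM. Saline replicate 4 was set apart for Psmd1 (0.934), at 194 CPM against 178 to 179 CPM. Saline replicate 2 was set apart for Psmd6 (0.861), at 93.7 CPM against 107 to 109 CPM, and for Psmb9 (0.869), at 5.80 CPM against 4.06 to 4.25 CPM.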

How the results depend on the processing

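The number of members called was 0 under every alternative run. Over all genes, 62 were called, 54 higher and 8 lower in METH rats. The Wald test of DESeq2 called 191 (141 higher, 50 lower), and 13 genes were lower with no filter on low counts. The rat numbers did not pair the samples (correlation of deviations -0.09 on average over same-numbered rats, which are different animals). The replicate block left 37 genes (35 higher, 2 lower), 0 members were called, 0 members were lower and 0 pathway genes higher at an unadjusted p below 0.05. DESeq2 and the fit with no filter also gave 0 members lower at that level, in place of Psmb11. With total-count scaling the median of the constitutive subunits was -0.0057 in place of 0.03, and 1 pathway gene was lower at an unadjusted p below 0.05. That scaling turned the sign of Psmd2 (-0.0013), Psmd10 (-0.0111) and Psmd5 (-0.0102). With 1 rat left out at a time, 37 to 70 genes were called, 35 to 66 higher and 2 to 9 lower. Members at an unadjusted p below 0.05 then numbered 0 to 1 higher and 0 to 1 lower, and pathway genes 0 to 3 higher (1 without saline replicate 2 or 3 or METH replicate 2 or 3, and 0 without METH replicate 4) and 0 to 1 lower. The same fits gave ranges across 0 for Psmb7 (-0.068 to 0.033), Psmc3ip (-0.137 to 0.0135), Psmd5 (-0.019 to 0.082), Psmd10 (-0.0565 to 0.086), Psmb8 (-0.225 to 0.0765), Psmb5 (-0.0321 to 0.086), Psmb6 (-0.0332 to 0.104) and Psmb9 (-0.0046 to 0.271). The median of the constitutive subunits stayed between 0.015 and 0.038. The cause of these moves was not tested. Psmb11 had 4 to 22 counts per rat.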
